A study of Mus musculus with 8 samples.

Results

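CCL21 is a secreted chemokine that the mouse genome encodes in several nearly identical gene copies on chromosome 4. The rule for membership took every array probe whose RefSeq accession belongs to Ccl21b, Ccl21c or Gm13304. It found 3 probes, 1 for each gene, among 116 probes that could be paired with a gene symbol and 59709 probes in all once control spots were set aside. The 3 genes had been chosen because their probes were the most increased coding probes at the older age, so their difference between the ages describes that choice and was not tested. The choice drew on 71 coding genes with a symbol. The smallest difference inside it was 3.24 on the log2 scale, for Ccl21c, and the next gene outside it, E330014E10Rik, stood at 1.63.

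ICR mice, which are outbred, gave the skeletal muscle that the study profiled at postnatal day 0 (D0, newborn) and postnatal day 65 (D65, young adult), with 4 Cy3 arrays per age, to find long noncoding RNAs that differ between these ages. All samples were untreated as far as the labels say, and neither the muscle taken nor the sex of the animals is given there. Whether the 4 samples of each age are 4 animals is not stated, and their spread may be technical. The array carries no named probe for any of 41 marker genes of muscle fibres, perinatal muscle, lymphatic endothelium, lymphoid stroma, T cells, B cells, dendritic cells and macrophages. The labelled tissue could therefore not be checked against its defining genes, and the cells that hold the CCL21 RNA were not identified.

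CCL21 is made mainly by lymphatic endothelial cells and by stromal cells of lymph nodes and spleen. It binds the receptor CCR7 on naive T cells and mature dendritic cells and draws them into lymphatic vessels and lymph nodes, while the atypical receptor ACKR4 removes it. CCL21 stays bound to matrix sugars near its source through a basic tail. Of the mouse copies, Ccl21a encodes a form with serine at a position where Ccl21b and Ccl21c encode leucine, and the serine form is known from lymphoid organs and the leucine form from lymphatic vessels outside them.

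RefSeq (assembly GRCm38.p6) lists 6 CCL21 genes, namely Ccl21a, Ccl21b, Ccl21c, Ccl21d, Gm10591 and Gm13304. Of these, 3 have a probe and 3 do not, since Ccl21a, Ccl21d and Gm10591 are named on no probe of the array. The Gm13304 probe carries the accession NM_001193666, the Ccl21b probe NM_011335 and the Ccl21c probe NM_023052. The letters of the probes were not used here, and because the copies are so alike a probe named for one may bind RNA of another, including the 3 copies without a probe. A level below is therefore that of the named probe, and which copy was transcribed is uncertain.

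The likeness of the copies can be seen before the start of transcription. RefSeq holds a promoter window for 5 of the 6 genes, Ccl21c being the one not matched. The 250 bases before the start are shown for Gm13304 and Ccl21b, which have probes, and for Ccl21a, the lymphoid organ copy, to show how far the copies are alike. Capitals mark the bases at which Gm13304 and Ccl21a differ. They lie at chr4:42114537-42114786 on the plus strand (Gm13304), chr4:42773992-42774241 on the minus strand (Ccl21a) and chr4:42172870-42173119 on the plus strand (Ccl21b), in GRCm38.p6.
Gm13304: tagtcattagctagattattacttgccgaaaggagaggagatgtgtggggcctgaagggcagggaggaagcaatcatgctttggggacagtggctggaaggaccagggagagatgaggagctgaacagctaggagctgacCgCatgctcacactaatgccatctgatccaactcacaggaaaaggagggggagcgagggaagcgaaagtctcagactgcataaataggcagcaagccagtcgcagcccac
Ccl21a: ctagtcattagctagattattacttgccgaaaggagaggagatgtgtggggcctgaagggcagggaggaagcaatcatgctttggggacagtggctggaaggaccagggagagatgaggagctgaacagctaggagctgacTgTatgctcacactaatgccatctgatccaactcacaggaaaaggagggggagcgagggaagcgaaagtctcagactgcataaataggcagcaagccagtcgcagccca
Ccl21b: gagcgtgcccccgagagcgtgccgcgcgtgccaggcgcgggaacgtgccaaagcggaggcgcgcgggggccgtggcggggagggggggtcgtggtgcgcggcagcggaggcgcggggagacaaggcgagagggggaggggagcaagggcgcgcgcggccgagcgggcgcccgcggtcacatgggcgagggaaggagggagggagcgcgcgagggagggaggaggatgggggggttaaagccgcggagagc

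Counted from 1 at the 5′ end of the Gm13304 window, the substitutions in Ccl21a are C141T and C143T, so 247 of 249 aligned bases were identical. The window of Ccl21d differs from Gm13304 by C143T alone and that of Gm10591 is identical to it over all 250 bases. The Ccl21b window is a different sequence, with 34.4% identity to Gm13304 at its best ungapped position and a GC content of 78.0%, against 53.6% in Gm13304 and a median of 52.4% over all promoter windows. In RefSeq the Ccl21b gene spans 83706 bases and has a pair of transcripts, where each of the other copies spans 1131 or 1132 bases and has 1 transcript. The Ccl21b window therefore lies before the start of a much longer gene model, and whether the transcript on the array starts there is not shown by these tables.

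Both strands of the 5 windows were searched for 6 motifs, of which only the E-box matched, so no matches overlapped. The E-box CANNTG occurs once in each window, 91 bases before the start in Gm13304 and 74 in Ccl21b, and 66.2% of the 32851 promoter windows of this length hold it. The letters TATAAA (in 12.4% of all windows), CCAAT (33.9%) and GGGCGG (32.7%), the NF-kappaB motif (7.25%) and a GAAA repeated after a gap of 2 bases (2.98%) were found in none of the 5 windows.

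All 3 probes were bright enough to be read on every array. Each has 1 spot per array, and all 24 spots were well above background, none saturated and none marked as an outlier. The median brightness of the spot exceeded that of its local background 5.97-fold at the lowest, for Gm13304 on D0 replicate 4, and 268-fold at the highest, for Gm13304 on D65 replicate 3. The scanner software gave each processed signal an error of at most 10.2% of its value. With a single spot, no spread between copies of a probe on an array could be measured.

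Gm13304, named as a predicted gene but annotated as a CCL21 copy, had processed signals of 671.4, 478.7, 291.8 and 137.9 on D0 replicates 1 to 4. On D65 replicates 1 to 4 they were 2946.4, 2255.7, 7455.7 and 3963.7. Even before any scaling between arrays, the lowest D65 signal lay above the highest D0 signal. For comparison between arrays, each processed signal was put on the log2 scale and the array's own 75th percentile subtracted, which gives the level used below. On this scale Gm13304 stood at 1.30, 0.63, 0.19 and 0.015 on the D0 arrays and at 4.48, 4.23, 5.68 and 4.71 on the D65 arrays. The mean level was 0.53 ± 0.57 at D0 and 4.77 ± 0.64 at D65 (SD, n = 4 per age), a difference of 4.24 (SE 0.37) or 18.9-fold, and the ages were 2.92 apart at their nearest arrays. The subtracted 75th percentile was 8.0892, 8.2723, 7.9985 and 7.0926 on D0 replicates 1 to 4. On D65 replicates 1 to 4 it was 7.0463, 6.9138, 7.1858 and 7.2422. Subtracting it enlarged the mean D65 minus D0 difference of every CCL21 probe, so the fold values depend on this scaling. Probes well above background made up 63.1% to 68.4% on the D0 arrays and 52.3% to 60.7% on the D65 arrays. The cause of these differences between the ages was not tested.

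Ccl21b, whose product is the leucine form, had processed signals of 580.4, 352.8, 271.8 and 235.4 on D0 replicates 1 to 4. The D65 replicates gave 2765.3, 1830.1, 7465.3 and 4807.3, all above the D0 arrays. Its levels were 1.09, 0.19, 0.088 and 0.79 at D0 and 4.39, 3.92, 5.68 and 4.99 at D65. D65 replicate 3 was the highest array, as it was for Gm13304. The mean level went from 0.54 ± 0.48 to 4.74 ± 0.76 (SD, n = 4), a difference of 4.21 (SE 0.39) or 18.5-fold, with the nearest arrays 2.83 apart.

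Ccl21c, which also encodes the leucine form, had processed signals of 1043.1, 1135.3, 669.4 and 391.8 on D0 replicates 1 to 4. On D65 replicates 1 to 4 the signals were 3272.2, 2307.6, 7982.3 and 4945.2, again without overlap. Its levels were 1.94, 1.88, 1.39 and 1.52 at D0 and 4.63, 4.26, 5.78 and 5.03 at D65. The mean level went from 1.68 ± 0.27 to 4.92 ± 0.65 (SD, n = 4), a difference of 3.24 (SE 0.32) or 9.47-fold. This was the smallest difference among the 3 probes, and the nearest arrays were 2.32 apart. In whole muscle, more cells that make CCL21 and more CCL21 RNA per cell cannot be told apart.

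**Figure D1:**
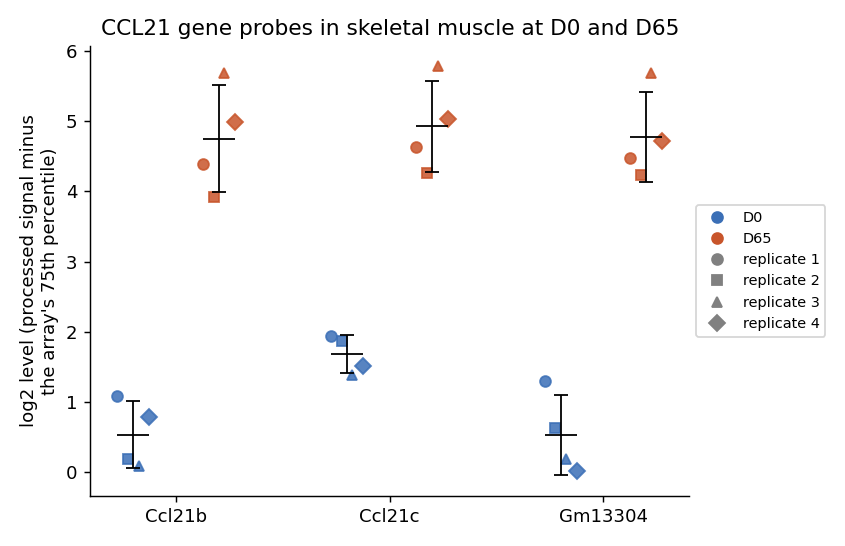
Log2 level (processed signal minus the 75th percentile of the array) of the 3 CCL21 probes on each of 4 D0 arrays (blue) and 4 D65 arrays (orange). Symbols mark the replicate number, horizontal bars the mean and whiskers the SD. The ages do not overlap for any probe, and Ccl21c has a D0 mean of 1.68 where Ccl21b and Gm13304 have 0.54 and 0.53.

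The members were chosen on this contrast, so the following counts are background to it. A probe was kept if either age had it well above background on its 4 arrays, and called in limma where the adjusted p was under 0.05 and the level moved by at least 1. Of 34948 kept probes, 9.57% were called higher and 12.6% lower at D65. The ages did not overlap for 31.5%, and for 15.1% every D65 array lay above every D0 array. Nothing is read from these shares about the 3 CCL21 probes, since choosing the most increased probes fixed their place in them. With the 75th percentile taken only over probes bright on every array, the balance of calls turned, from 3344 higher and 4395 lower to 4200 higher and 3866 lower. The median difference over the kept probes was 0.064. A position code in the file headers, read here as slide row and column, puts every D0 array in row 1 and every D65 array in row 2. Age and this position cannot be told apart. Across probes, D0 replicate 4 had rank correlations of 0.886 to 0.913 with its group, whose other members had 0.942 to 0.973 with each other. Without it the differences were 4.07 for Gm13304, 4.29 for Ccl21b and 3.19 for Ccl21c.

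The levels of different probes depend on how well each probe binds, so the copies were compared by the difference between their probes within an array and by how this difference moved with age. Scaling of the array drops out of it. The difference Ccl21b minus Ccl21c was -0.85, -1.69, -1.30 and -0.74 on D0 replicates 1 to 4, and -0.24, -0.33, -0.097 and -0.041 on D65 replicates 1 to 4. Every D65 array lay nearer to 0 than every D0 array. The mean moved from -1.14 ± 0.44 to -0.18 ± 0.13 (SD, n = 4), by 0.96.

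The difference Gm13304 minus Ccl21c followed the same course. It was -0.64, -1.25, -1.20 and -1.51 on the D0 arrays and -0.15, -0.033, -0.099 and -0.32 on the D65 arrays, again without overlap. The mean moved from -1.15 ± 0.37 to -0.15 ± 0.12 (SD, n = 4), by 1.00. The probe of Ccl21c thus increased less than each of the others on the log2 scale, by an amount larger than the SD within either age. Its mean level was 1.68 at D0, against 0.54 for Ccl21b and 0.53 for Gm13304. At D65 it was 4.92, against 4.74 and 4.77. The increase was therefore smaller as a ratio, and the processed signals themselves do not show a clearly smaller increase for Ccl21c. As this comparison of increases uses the same contrast as the choice of the genes, no test was made of it.

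Gm13304 and Ccl21b did not separate in this way. Their difference was 0.21, 0.44, 0.10 and -0.77 on the D0 arrays and 0.092, 0.30, -0.0018 and -0.28 on the D65 arrays. The ages overlapped, and the mean was -0.0046 ± 0.53 at D0 and 0.028 ± 0.24 at D65 (SD, n = 4). The move of 0.033 turned to -0.22 without D0 replicate 4, the array with the most negative difference, and to -0.058 without D65 replicate 2. Both values, and 0.033 itself, were smaller than the SD at D0.

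**Figure D2:**
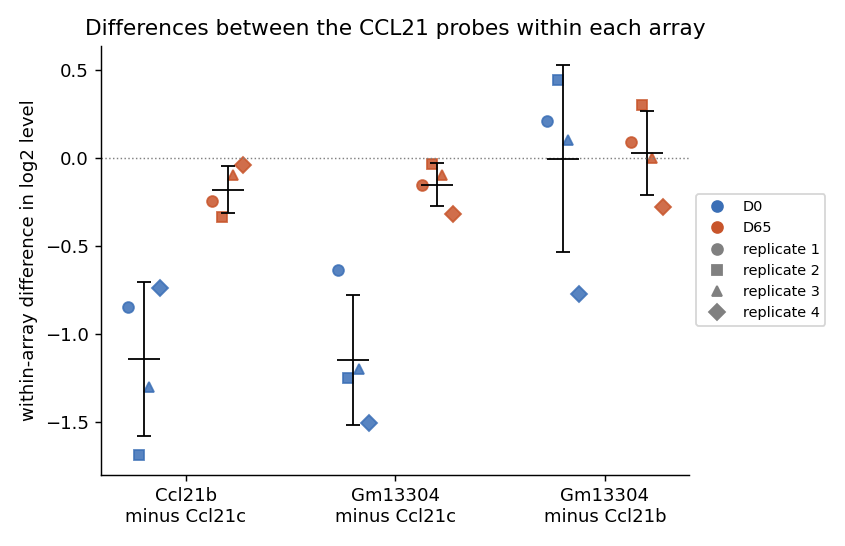
Difference in log2 level between each pair of CCL21 probes within an array, for 4 D0 arrays (blue) and 4 D65 arrays (orange). Symbols mark replicates, bars the mean and whiskers the SD. Both pairs that include Ccl21c move toward 0, from means of -1.14 and -1.15 to -0.18 and -0.15, and the pair without it stays around 0 with D0 replicate 4 lowest.

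The surface correction of the scanner software touched the probes unequally. It had been applied on 5 of the 8 arrays, where it raised the log2 signal of Ccl21b by 0.10 to 0.19, while Gm13304 moved by -0.087 to -0.041 and Ccl21c by -0.10 to 0.0031. With this correction undone, Ccl21b minus Ccl21c still moved by 0.98 between the ages and Gm13304 minus Ccl21c by 1.05. After normexp background correction, which subtracts the local background and then models the remaining signal over the whole array, they moved by 0.91 and 1.00. The move of Gm13304 minus Ccl21b was 0.069 with the correction undone and 0.094 after normexp, both smaller than its SD within either age.

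The probes varied together among the adult arrays. On D65 replicate 3 the levels exceeded their age mean by 0.94 for Ccl21b, 0.85 for Ccl21c and 0.91 for Gm13304. On D65 replicate 2 they lay at -0.82, -0.67 and -0.55 from it. All 3 probes ranked D65 replicate 3 highest, then replicates 4, 1 and 2. Over the whole array, 60.7% and 59.2% of probes were well above background on replicates 3 and 4. On replicates 1 and 2 it was 52.3% and 54.2%. Whether this bears on the shared order was not tested, and the 3 probes may bind the same RNA. The spread of a single probe across the D65 arrays, 1.45 to 1.76 between the lowest and highest array, was far wider than the 0.29 to 0.58 of the differences between probes on the same arrays.

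Among the newborn arrays the probes shared less. D0 replicate 1 was the highest array for all 3, by 0.55 above the age mean for Ccl21b, 0.26 for Ccl21c and 0.77 for Gm13304. The lowest array was D0 replicate 3 for Ccl21b and Ccl21c but D0 replicate 4 for Gm13304. On D0 replicate 4, Ccl21b lay at 0.25 from its age mean where Gm13304 lay at -0.52. Within ages, the residual SD was 0.64 for Ccl21b, 0.50 for Ccl21c and 0.61 for Gm13304, against a median of 0.39 over all 34948 probes.

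**Figure D3:**
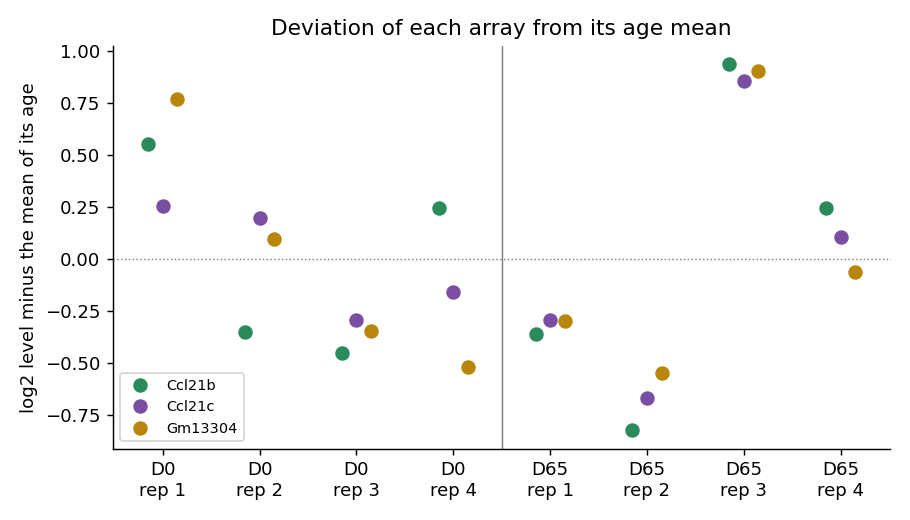
Log2 level of each CCL21 probe on each array minus the mean of its age, with D0 arrays on the left and D65 arrays on the right of the line. The 3 probes lie close together on each D65 array, all highest on replicate 3 (0.85 to 0.94) and lowest on replicate 2 (-0.82 to -0.55), and they spread most on D0 replicate 4.

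The CCL21 probes kept a large difference under every choice of processing tried, which their choice for a large increase largely set in advance. Every choice scaled the arrays in some way, so the unscaled signals were not among them. The 15 alternatives were in scaling, background correction, weighting, arrays left out and replicate number as a block, which cannot move the difference. Over them the difference ranged from 3.83 to 4.49 for Gm13304, from 3.73 to 4.48 for Ccl21b and from 2.82 to 3.46 for Ccl21c. Normexp correction with the 75th percentile gave the lowest value for each probe. Of the arrays left out, D65 replicate 3 lowered the difference the most for all 3, to 3.94, 3.89 and 2.96.

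**Figure D4:**
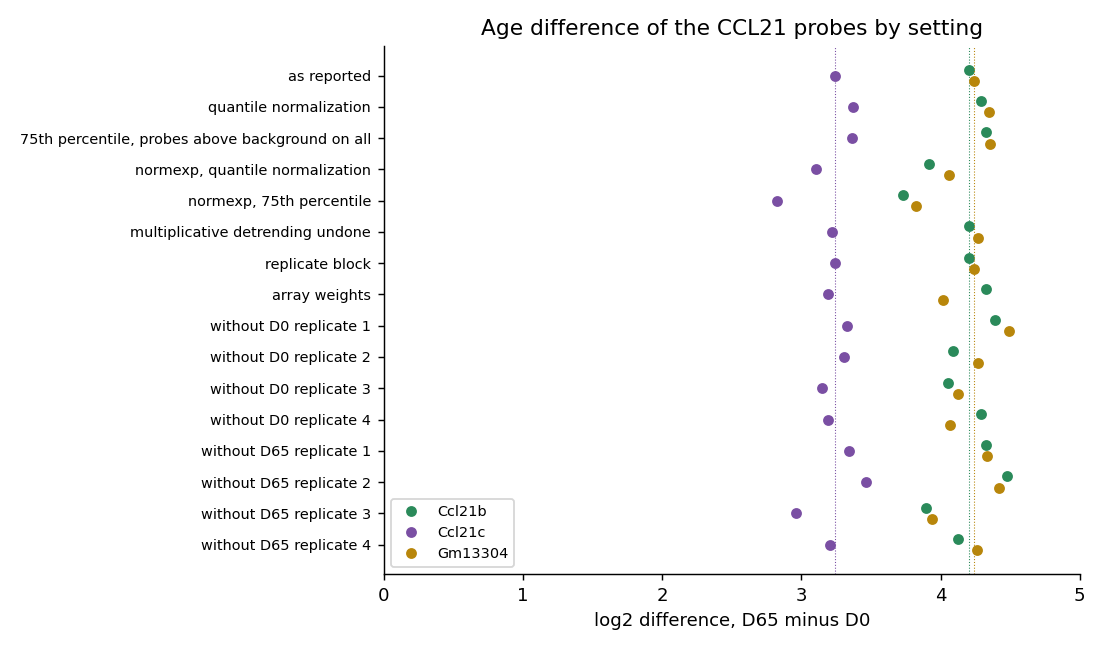
Log2 difference D65 minus D0 of the 3 CCL21 probes as reported and under 15 alternatives, with dotted lines at the reported values. Ccl21c lies between 2.82 and 3.46 throughout, and Ccl21b and Gm13304 lie between 3.73 and 4.49.

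The partners of CCL21 could not be followed. Of the receptors Ccr7, Ackr4 and Cxcr3, the related CCR7 ligand Ccl19 and the copies Ccl21a and Ccl21d, 0 of 6 had a named probe. Of 42 chemokine genes other than the members, which include Ccl19, Ccl21a and Ccl21d again, 1 had one. This was Ccl28, a chemokine of mucosal surfaces that attracts antibody-secreting cells through the receptors CCR3 and CCR10. Its level was -2.15, -0.58, -1.60 and 0.44 on D0 replicates 1 to 4 and 0.17, 0.32, -0.21 and -1.72 on D65 replicates 1 to 4. The ages overlapped, and the difference of 0.61 (SE 0.60) was not called (limma adjusted p 0.476). It was 0.22 without D0 replicate 1, 0.40 without D0 replicate 3, 0.38 without D65 replicate 2, 1.08 without D0 replicate 4 and 1.06 without D65 replicate 4, and 0.33 after normexp with quantile normalization, and was called in none of these.

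Of 12 antigen presentation genes, 1 had a named probe. B2m, the light chain shared by MHC class I molecules, stood at 6.27, 6.34, 6.73 and 6.92 at D0 and at 7.88, 7.38, 7.51 and 7.43 at D65. The ages did not overlap. The difference of 0.98 (SE 0.23, limma adjusted p 0.00938) fell short of the minimum change of 1, which it passed in 8 of 17 alternatives, with values of 1.02 to 1.11.

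The genes around the copies on chromosome 4 gave a mixed picture. Among 81 RefSeq genes within 500 kb of the run of copies, 3 have a named probe. With the other genes of the window left out, the copies of the run and the neighbours with a probe can be put in order. Along the chromosome they are Ccl21d, Gm13304, Gm13305, Ccl21b, Gm21953, Fam205a2, Gm10591 and Ccl21a. Of the 3 neighbours with a probe, 1 was called higher and 0 lower, where 22.1% of all probes were called in either direction. Their median difference was -0.45, against 0.064 over all probes.

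Gm21953, which lies next after Ccl21b among the genes with a probe, stood at 2.66, 2.88, 2.59 and 3.21 at D0 and at 4.34, 4.06, 4.08 and 3.93 at D65. It rose by 1.27 (SE 0.21, limma adjusted p 0.00169), or 2.40-fold, without overlap. After normexp correction with the 75th percentile its difference was 0.96, below the minimum change.

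Gm13305, which lies between Gm13304 and Ccl21b, stood at 6.20, 6.16, 7.16 and 7.63 at D0 and at 6.67, 5.66, 6.87 and 6.15 at D65. The ages overlapped, and the difference of -0.45 (SE 0.39) was not called (limma adjusted p 0.42). It was -0.17 without D0 replicate 4, -0.22 without D65 replicate 2, -0.082 with array weights and -0.68 after normexp with the 75th percentile. Fam205a2 stood at 0.16, 0.42, 3.30 and 3.62 at D0 and at 1.18, 0.48, 0.85 and 1.05 at D65. Its D0 arrays lay in 2 groups around the D65 values, so that a difference of -0.98 (SE 0.74, limma adjusted p 0.349) was not called. It was -1.56 without D0 replicate 1, -0.51 without D0 replicate 3 and -0.40 without D0 replicate 4, and turned to 0.082 with array weights.

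**Figure D5:**
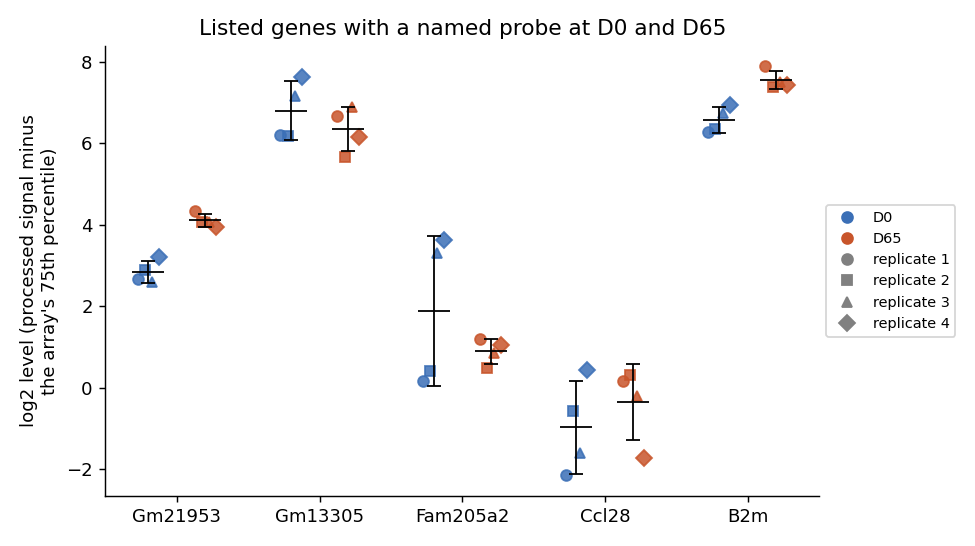
Log2 level of the 5 listed genes with a named probe on 4 D0 arrays (blue) and 4 D65 arrays (orange), with replicate symbols, mean and SD. Gm21953 and B2m do not overlap between ages, Gm13305 and Ccl28 do, and Fam205a2 splits at D0 into replicates 1 and 2 (0.16 and 0.42) and replicates 3 and 4 (3.30 and 3.62). The ages do not overlap for 31.5% of all 34948 kept probes.

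The probes with the course most like that of the CCL21 genes were sought by the root mean square distance between centred log2 levels over the 8 arrays, among 28103 other probes well above background on all of them. The members lay 0.25 to 0.35 from their own mean, to which each contributes, so their nearness is partly built in. Of the other probes, 0 lay as near as 0.35. The nearest were ASMM9PARTA031374 at 0.39 and ASMM9PARTA043280 at 0.41, vendor identifiers left without a gene name here, with differences between the ages of 3.60 and 3.40. Both were highest on D65 replicate 3, at 3.73 and 2.24, but neither ranked the other D65 arrays as the CCL21 probes did. ASMM9PARTA031374 was lowest on D65 replicate 4, at 2.76, with 2.85 on replicate 2, and ASMM9PARTA043280 had replicate 1, at 1.16, above replicate 4, at 0.78.

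Of the 64 probes with a symbol, none came close, which the choice of the most increased coding genes largely set in advance. The nearest was Nlrp4g, of the NOD-like receptor family, at a distance of 1.33, and 906 probes without a symbol lay nearer than it. Next came Gm21953 at 1.43, B2m at 1.57, Gm6710 at 1.59 and Tfrc, the transferrin receptor, at 1.68. The differences were 1.47 for Nlrp4g (limma adjusted p 0.00207), 1.01 for Gm6710 (adjusted p 0.0286, with overlapping ages) and 0.71 for Tfrc (adjusted p 0.0402, below the minimum change). Nlrp4g, Gm6710 and Tfrc were picked for a course like that of the members on these same arrays. Their differences, adjusted p values and calls therefore partly describe that choice and are not a separate test. The call of Gm6710 was lost in 8 of 17 alternatives, with adjusted p over all of them from 0.0026 to 0.081. A distance of this kind is a description, and since the members were chosen for a large increase it mostly finds probes that increased as much.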

How the data were processed

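Intensity values were read from the scanner files that the authors deposited, made with Agilent Feature Extraction 11.0.1.1 on a grid built on mm9, per the file headers. The deposited intensity is background-subtracted, and on 5 of the 8 arrays also detrended. The files flag spots of 0 or 1 as well above background, saturated or outlying. RNA was depleted of ribosomal RNA and labelled with random primers, per the labels' protocols. The authors' value table does not list the 3 probes and was not used.

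Control spots, 20 negative control probes and outlier spots were left out. The log2 processed signal, less its 75th percentile on the same array, is the level. D65 was set against D0 for all 34948 kept probes in limma 3.58.1 (R 4.3.3), with Benjamini-Hochberg adjustment, after this fit had been tested on simulated data. The simulated spread was independent for each probe and array, so that test does not cover effects shared by a whole array.

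Of 123 RefSeq probes, 116 matched a gene table of GRCm38.p6. The window of neighbours used the copies placed in 1 run on chromosome 4, which leaves out the place listed for Ccl21c. Genes were named by a rule covering the members, the listed genes and the probes nearest in course. The members and lists were chosen with earlier results of these data known. Alternatives for Nlrp4g, Gm6710 and Tfrc were added after seeing the data. The mean spot brightness was not used, and normexp with an offset of 50 took the median. The number of arrays limits the precision.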

Additional observations from a re-analysis of the deposited data

How the results depend on the processing

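The differences of Ccl21b, Ccl21c and Gm13304 and the moves of both pairs with Ccl21c kept their direction in all 15 alternatives each and stayed within 1 SD of the values reported. The direction for the genes was largely set in advance, since they were chosen for a large difference. Those alternatives include replicate number as a block, which cannot move any of these values. They also include the 75th percentile over probes bright on every array, which cannot move the pairs. Leaving out 1 array gave 3.89 to 4.48, 2.96 to 3.46 and 3.94 to 4.49 for the genes. The move of Gm13304 against Ccl21b, 0.033, was -0.31 with array weights and -0.22 to 0.18 with 1 array left out. Fam205a2 turned to 0.082 with array weights. The cause was not tested. The replicate numbers did not pair the arrays: deviations of same-numbered arrays correlated at -0.12, 0.24, 0.28 and -0.13. With replicate number as a block 7750 probes were called, and the block changed no call of the listed genes. The members' values were 4.21, 3.24 and 4.24 for Ccl21b, Ccl21c and Gm13304. They had to stay the same, because each replicate number occurs once at each age. Over the whole array, 7739 probes were called, 4241 after normexp with quantile normalization, 4475 after normexp with the 75th percentile and 6894 to 10126 with 1 array left out. As reported, 22.1% of all 34948 kept probes were called in either direction. Of the 5 listed genes 1 was called. There were 2 under quantile normalization, with the 75th percentile taken only over probes bright on every array, after normexp with quantile normalization, with array weights and with no minimum change, 0 after normexp with the 75th percentile, and 1 to 2 with 1 array left out. Single spots limit the precision of each member.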

Other observations

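At D0 the neighbours Gm13305 and Fam205a2 divided the arrays in the same way, a pattern noticed after their values were seen. Gm13305 stood at 6.20 and 6.16 on D0 replicates 1 and 2 and at 7.16 and 7.63 on replicates 3 and 4, and Fam205a2 at 0.16 and 0.42 against 3.30 and 3.62. This was not particular to neighbours, since B2m divided the arrays likewise, with 6.27 and 6.34 against 6.73 and 6.92. Gm6710 did so too, with 2.87 and 3.18 against 4.19 and 3.34. The neighbour Gm21953 did not, with 2.66 and 2.88 against 2.59 and 3.21, nor did Ccl28, Nlrp4g or Tfrc. Gm13304 and Ccl21c ran the other way, with 1.30 and 0.63 against 0.19 and 0.015 for Gm13304 and 1.94 and 1.88 against 1.39 and 1.52 for Ccl21c. Ccl21b did not divide the arrays so, with 1.09 and 0.19 against 0.088 and 0.79. How many of all kept probes divide the D0 arrays in either way was not counted, so nothing is read from this pattern. At D65 the levels of Fam205a2 spread over 0.48 to 1.18. No array of any named probe or probe pair stood far from the others of its age by Dixon's test, in 28 groups of 4.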
